A study of Mus musculus with 7 samples.

Results

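The genes described are Actb, Gapdh, Ppia, Hprt, Tbp, Ywhaz, Polr2a and Tfrc, 8 housekeeping genes that laboratories use as references for other transcripts. They were found as the non-control probes whose transcript accession belongs to one of these genes, which gave 19 of 56605 probes and, with 1 probe per gene, 8 of 22060 genes tested. The set was chosen on results of these same arrays, the differences between MPE and vehicle and between replicates 1-2 and the others, so the genes' own differences are given as descriptions with standard errors and intervals and with no test. The cells were MIN6, a mouse beta-cell line that secretes insulin, kept for 3 days with Maidong polysaccharide extract (MPE, 4 arrays) or with phosphate-buffered saline as vehicle (3 arrays). The culture notes list several MPE concentrations, and the labels do not say which one the arrays had. The second comparison sets the arrays numbered replicates 1-2 (4 arrays) against the others, which are MPE replicates 3 and 4 and vehicle replicate 3.

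A reference gene is meant to keep the same level in every sample, so that the ratio of another transcript to it shows the other transcript alone. Reference genes are drawn from processes that every cell runs, such as the cytoskeleton, glycolysis, protein folding, nucleotide salvage, transcription, adaptor signalling and iron uptake. Array data are usually scaled by a property of the whole array instead, and a reference gene then shows how well that property follows the abundant transcripts.

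All 7 arrays lay on 1 slide, with MPE in its second row and vehicle in its first row, so that the row and the treatment cannot be told apart. Replicates 1-2 lay in slide columns 1 and 2, and the others in columns 3 and 4. The split by replicate number therefore cannot be told apart from the side of the slide. Probes well above background, the flag for a spot clearly brighter than its surroundings, numbered 27901, 28028, 28172 and 28465 for MPE replicates 1 to 4. Vehicle replicates 1 to 3 had more of them, with 29496, 30111 and 29661, so that the treatments did not overlap in this count. The cause of this difference was not tested. Of 16 beta-cell marker genes, 15 were well above background on every array, and Slc2a2, a glucose transporter gene, on none. No marker of acinar or duct cells was well above background on all 7 arrays, while 3 of 5 alpha-cell markers, 2 of 3 delta- and PP-cell markers and 3 of 11 fibroblast, endothelial and immune markers were. Between arrays, the correlation of log2 levels across genes was 0.991 to 0.994 within MPE, 0.995 to 0.997 within vehicle and 0.991 to 0.995 between them. Nothing in the labels states that replicates were separate cultures, so every p-value rests on a spread between samples that could be technical.

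Promoter sequences are shown because the 8 genes serve unrelated functions but are all transcribed in most cell types. The promoter set used, of the build GRCm38.p6, held 6 of the 8 genes, Gapdh, Ppia, Hprt, Tbp, Polr2a and Tfrc, the last with a pair of start sites. It had no entry for Actb and Ywhaz. For Gapdh the start in the promoter table is not the outermost start of the gene. The 100 bases before each start were searched on both strands for TATAAA, where the transcription machinery can dock, for GGGCGG, the core of an Sp1 site known as the GC box, and for CCAAT, which the factor NF-Y binds. Capitals mark each match, and CCGCCC in the Tbp window is GGGCGG on the other strand.
Gapdh: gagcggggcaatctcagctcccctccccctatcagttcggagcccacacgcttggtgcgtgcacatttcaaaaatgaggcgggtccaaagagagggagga
Ppia: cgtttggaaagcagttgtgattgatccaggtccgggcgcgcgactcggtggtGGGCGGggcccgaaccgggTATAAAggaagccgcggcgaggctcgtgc
Hprt: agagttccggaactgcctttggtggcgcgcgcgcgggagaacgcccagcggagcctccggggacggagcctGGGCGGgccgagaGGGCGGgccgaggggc
Tbp: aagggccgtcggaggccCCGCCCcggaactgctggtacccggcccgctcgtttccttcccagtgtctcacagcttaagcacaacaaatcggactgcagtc
Polr2a: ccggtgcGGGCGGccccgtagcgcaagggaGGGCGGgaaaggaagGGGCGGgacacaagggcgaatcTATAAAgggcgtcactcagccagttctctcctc
Tfrc, upstream start: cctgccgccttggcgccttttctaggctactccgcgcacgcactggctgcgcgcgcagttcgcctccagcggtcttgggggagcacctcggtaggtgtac
Tfrc, downstream start: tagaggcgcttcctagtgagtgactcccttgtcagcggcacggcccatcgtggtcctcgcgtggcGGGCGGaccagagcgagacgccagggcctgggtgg

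Each line runs 5′ to 3′ along the strand of its gene. The windows lie at chr6:125165774-125165873 on the minus strand for Gapdh, chr11:6415767-6415866 on the plus strand for Ppia and chrX:52987978-52988077 on the plus strand for Hprt. They lie at chr17:15499788-15499887 on the plus strand for Tbp, chr11:69758634-69758733 on the minus strand for Polr2a, and chr16:32608796-32608895 and chr16:32609022-32609121 on the plus strand for Tfrc. Ppia held 1 TATAAA and 1 GGGCGG, Polr2a 1 TATAAA and 3 GGGCGG, Hprt 2 GGGCGG, and Tbp and the downstream Tfrc start 1 GGGCGG each. Of 32851 mouse promoters in the same table, 5.6% held TATAAA, 24.7% GGGCGG and 18.9% CCAAT in this window. CCAAT was in none of the windows shown, and the Gapdh window and the upstream Tfrc window held none of the searched letters. The GC content of the windows was 59.0% to 77.0%, lowest before Gapdh and highest before Hprt.

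All 19 probes were well above background on all 7 arrays, and no spot was saturated. Levels below are log2 signals minus the array's own 75th percentile over non-control probes, and a gene is represented by its brightest probe. Signals of different probes depend on the probe as well as on the transcript, so the genes are not ranked by amount. By brightness, the Gapdh, Ppia and Actb probes stood at or above the 99th percentile of genes well above background on all arrays, and the Tbp probe near the middle, at percentile 47.9.

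Actb encodes cytoplasmic beta-actin, a main protein of the cytoskeleton. Its levels were 8.68, 8.61, 8.37 and 8.48 on MPE replicates 1 to 4, against 8.77, 8.77 and 8.42 on vehicle replicates 1 to 3. Within both treatments, replicates 1 and 2 were above the others, and MPE and vehicle overlapped. The MPE mean of 8.54 ± 0.14 (SD, n = 4) lay below the vehicle mean of 8.65 ± 0.20 (SD, n = 3), with a difference of -0.12 (SE 0.12, 95% interval -0.39 to 0.16), or 0.922 times vehicle.

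Gapdh encodes the glycolytic enzyme glyceraldehyde-3-phosphate dehydrogenase. The brightest of its 6 probes had levels of 9.37, 9.28, 9.04 and 9.29 in MPE and of 9.55, 9.42 and 9.18 in vehicle. MPE replicate 3 was the lowest array and vehicle replicate 1 the highest. Means were 9.25 ± 0.14 (SD, n = 4) in MPE and 9.38 ± 0.19 (SD, n = 3) in vehicle, a difference of -0.14 (SE 0.11, 95% interval -0.40 to 0.13), which is 0.911 times vehicle. Before scaling, the same probe gave 243804, 239015, 221327 and 231141 signal units in MPE and 242376, 228345 and 220253 in vehicle, groups that overlapped almost entirely.

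Ppia encodes cyclophilin A, a peptidyl-prolyl isomerase that helps proteins fold and binds the drug cyclosporin A. Its levels were 9.39, 9.26, 9.13 and 9.29 in MPE, against 9.42, 9.46 and 9.27 in vehicle. MPE replicate 3 was again the lowest array, and the groups overlapped. Ppia averaged 9.27 ± 0.11 (SD, n = 4) in MPE and 9.38 ± 0.10 (SD, n = 3) in vehicle, 0.921 times vehicle (difference -0.12, SE 0.08, 95% interval -0.31 to 0.07).

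Hprt encodes hypoxanthine-guanine phosphoribosyltransferase, which returns purine bases to nucleotides. Its levels were 6.15, 6.20, 6.18 and 6.10 in MPE, against 6.06, 6.14 and 6.03 in vehicle. It stood on the other side of 0 from the 3 genes above, since its MPE mean of 6.15 ± 0.04 (SD, n = 4) was above its vehicle mean of 6.08 ± 0.06 (SD, n = 3). The difference was 0.07 (SE 0.05, 95% interval -0.05 to 0.20), or 1.05 times vehicle, and the groups still overlapped.

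Tbp and Polr2a serve transcription. Tbp encodes the TATA-binding protein, and its levels were 0.58, 0.60, 0.59 and 0.61 in MPE, against 0.64, 0.69 and 0.63 in vehicle. All MPE arrays lay below all vehicle arrays, by a small margin. The means were 0.59 ± 0.02 (SD, n = 4) in MPE and 0.65 ± 0.03 (SD, n = 3) in vehicle, and the difference was -0.06 (SE 0.05, 95% interval -0.16 to 0.05). Polr2a encodes the largest subunit of RNA polymerase II, which transcribes protein-coding genes. Its levels were 4.74, 4.73, 4.49 and 4.75 in MPE and 4.91, 4.80 and 4.71 in vehicle. MPE replicate 3 lay well below the other MPE arrays, which sat close together and overlapped the vehicle range. Polr2a averaged 4.68 ± 0.13 (SD, n = 4) in MPE and 4.81 ± 0.10 (SD, n = 3) in vehicle, a difference of -0.13 (SE 0.09, 95% interval -0.34 to 0.07), 0.912 times vehicle.

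Ywhaz encodes the zeta form of the 14-3-3 adaptor proteins, which bind phosphorylated partners. Its levels were 5.31, 5.40, 5.31 and 5.41 in MPE, against 5.33, 5.42 and 5.24 in vehicle. The groups covered almost the same range, and the difference was 0.03 (SE 0.06, 95% interval -0.12 to 0.18). Tfrc encodes transferrin receptor 1, which takes up iron-loaded transferrin. Its levels were 2.15, 2.28, 2.00 and 2.03 in MPE and 2.18, 2.26 and 2.07 in vehicle. As for Actb, the arrays numbered 1 and 2 were the higher ones in both treatments. The difference between MPE and vehicle was -0.05 (SE 0.09, 95% interval -0.26 to 0.15).

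**Figure D1:**
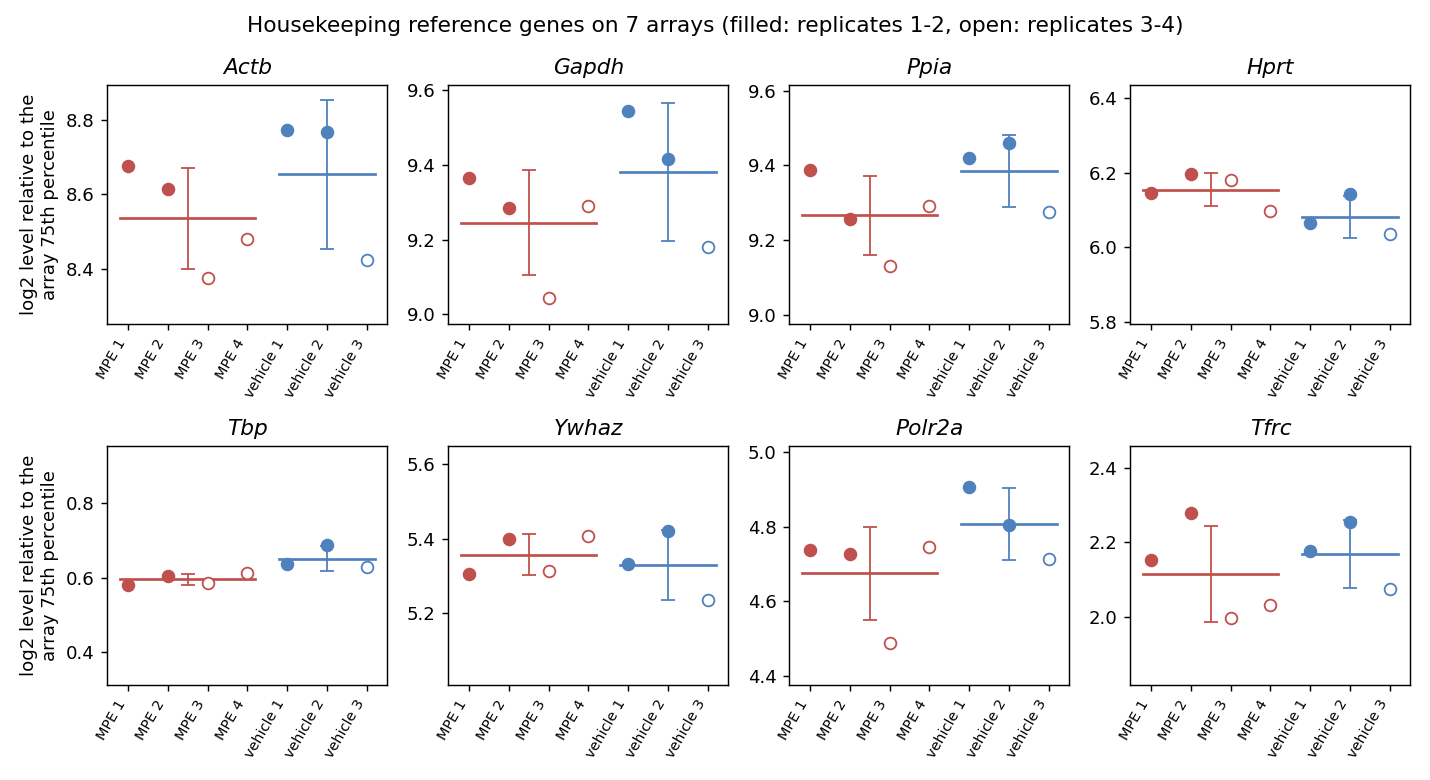
Level of each of the 8 reference genes on each array (y axis, log2 signal minus the array's 75th percentile; x axis, array), with the mean (line) and SD (bar) of 4 MPE arrays in red and 3 vehicle arrays in blue. Filled points are replicates 1-2 and open points replicates 3-4; the groups overlap for every gene except Tbp, and all filled Actb and Tfrc points lie above all open ones.

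Under this scaling, 6 of the 8 genes had a difference below 0 between MPE and vehicle, where 57.7% of all 22060 genes did, and Hprt and Ywhaz were above 0. The median of the 8 differences was -0.09, against -0.02 over all genes tested. All 8 intervals included 0, and all 8 lay inside a change of 1.5-fold in either direction. One gene, Tbp, had groups that did not overlap, while 4.53% of all genes had such groups, 3.36% lower and 1.17% higher in MPE. Over all 22060 genes, limma at an adjusted p of 0.05 (Benjamini-Hochberg) called 1 gene (0.00453%). Leaving out vehicle replicate 3 gave the 8 genes a median of -0.14, and leaving out vehicle replicate 1, vehicle replicate 2 or MPE replicate 3 gave -0.06, -0.05 and -0.06. Single genes moved further. Without vehicle replicate 3 the difference was -0.23 for Actb and -0.24 for Gapdh, without vehicle replicate 1 it was -0.06 and -0.05, without vehicle replicate 2 it was -0.06 for Actb, and without MPE replicate 3 it was -0.06 and -0.07. Without MPE replicate 3 it was also -0.07 for Ppia and for Polr2a. Over all single arrays left out, Tfrc ranged from -0.11 to -0.01 and Ywhaz from -0.02 to 0.07, with Ywhaz below 0 only without vehicle replicate 3.

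The split by replicate number was wider. All 8 genes were higher on replicates 1-2 than on the others when treatment was a term of the fit, with a median of 0.13, against 0.02 over all genes, of which 45.8% were below 0. Actb was higher by 0.27 (SE 0.05, 95% interval 0.14 to 0.40), or 1.20 times, with a difference of 0.22 within MPE and of 0.35 within vehicle. Gapdh was higher by 0.22 (95% interval 0.02 to 0.42) and Tfrc by 0.18 (0.05 to 0.31), and the intervals of the other 5 genes included 0. Of the 6 Gapdh probes, 3 lay on the other side of 0, at -0.05, -0.13 and -0.11, and the mean over its probes gave 0.03. Tbp had the smallest difference, 0.01, which ranged from -0.01 to 0.02 with 1 array left out, and Ywhaz ranged from -0.01 to 0.09. The other Tbp probes, both dim, gave 0.02 and 0.24, and the mean over the Tbp probes gave 0.09. Actb and Tfrc were the 2 genes whose arrays did not overlap between replicates 1-2 and the others, both higher on replicates 1-2, where 27.8% of all genes did not overlap, 16.1% higher and 11.7% lower. Over all genes, limma's adjusted test called 373 (1.69%), 100 higher (0.453%) and 273 lower (1.24%). The members' median was 0.09 without MPE replicate 3, and the 373 calls fell to between 2 and 229 when any single array was left out.

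Vehicle replicate 3 is the only vehicle array outside replicates 1-2, and it also lay in another slide column than its number, column 4. Whether the difference between MPE and vehicle itself depended on the replicate number was tested by an interaction term, to which the choice of the genes gave no fixed direction. The interaction ranged from -0.15 for Ywhaz to 0.06 for Tfrc, and limma gave an adjusted p of 0.999 for each of the 8 genes. Over all genes the term was called for 1 of 22060 (0.00453%), and the spread of the single vehicle array was taken from the other arrays.

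The SD over the 7 arrays describes stability. It was 0.04 for Tbp, 0.06 for Hprt, 0.07 for Ywhaz, 0.11 for Tfrc, 0.11 for Ppia, 0.13 for Polr2a and 0.16 for both Actb and Gapdh. The median of the 8 was 0.11, the same to this precision as that of the 19713 genes well above background on all arrays. Dimmer classes of genes mostly varied more. Each gene was therefore also placed in 1 of 5 equal brightness classes of genes well above background on all arrays. The median SD was 0.23 in the dimmest class and 0.07 in the brightest. It was 0.10 among the brightest 1%, where Actb, Gapdh and Ppia lie, so their class percentiles do not compare them with equally bright genes. Tbp varied less than nearly all genes of its class (percentile 1.65), and Hprt (32.7) and Ywhaz (44.1) less than the median one. Actb (94.0), Gapdh (94.1), Polr2a (86.8), Ppia (82.2) and Tfrc (76.6) varied more than the median gene of their class. All of these SDs are of the brightest probe, and other probes of a gene could differ. The other Tbp probes, both dim, had SDs of 0.14 and 0.29, and the other Ywhaz probe 0.16. The other Gapdh probes had 0.08 to 0.15, the second Ppia probe 0.10, the second Polr2a probe 0.13 and the second Tfrc probe 0.21. Without MPE replicate 3, on which 5 of the 8 genes had their lowest level, the median SD was 0.08.

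This order depended on the scaling. On the unscaled signal, the coefficient of variation over the arrays was 3.06% for Polr2a, 3.15% for Ppia, 4.16% for Gapdh and 5.81% for Actb. The same genes had 8.50%, 7.74%, 11.2% and 11.2% after scaling to the 75th percentile. Hprt, Ywhaz and Tbp went the other way, with 11.1%, 8.39% and 7.05% unscaled and 4.13%, 4.66% and 2.58% scaled. Tfrc had 7.89% unscaled and 7.53% scaled, so the 8 genes fell into 4 that were steadier before scaling, 3 that were clearly steadier after it and 1 with little difference.

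The scaling factor itself differed between arrays. The 75th percentile of the unscaled signal was 370, 383, 419 and 369 on MPE replicates 1 to 4, against 324, 334 and 380 on vehicle replicates 1 to 3. MPE replicate 3 had the highest value, and vehicle replicates 1 and 2 the lowest. On the log2 scale the means were 8.59 ± 0.09 (SD, n = 4) in MPE and 8.43 ± 0.12 (SD, n = 3) in vehicle, a difference of 0.16 (two-sided exact permutation p = 0.171). The array median and the 99th percentile were higher in MPE by 0.23 and 0.12, each with an exact permutation p of 0.114. The mean of 7 probes for the E1A spike-in controls, which measure labelling and scanning and not the cells where spike-in RNA was added, was lower in MPE by 0.14 (exact permutation p = 0.114). The lowest p that 4 against 3 arrays allow here is 0.0571, and over the 4 measures the adjusted p was 0.152 to 0.171. The labels do not say whether spike-in RNA was added.

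The geometric mean of the 8 unscaled signals was 20509, 21276, 20897 and 19801 in MPE and 18790, 19530 and 19680 in vehicle. The lowest MPE array was above the highest vehicle array by a small margin. It spanned less than the 75th percentile did, from -0.09 to 0.08 around its mean on the log2 scale, against -0.18 to 0.19 for the percentile. After scaling, the mean of the 8 genes was accordingly lowest on MPE replicate 3, at -0.13, and highest on vehicle replicate 2, at 0.10.

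**Figure D2:**
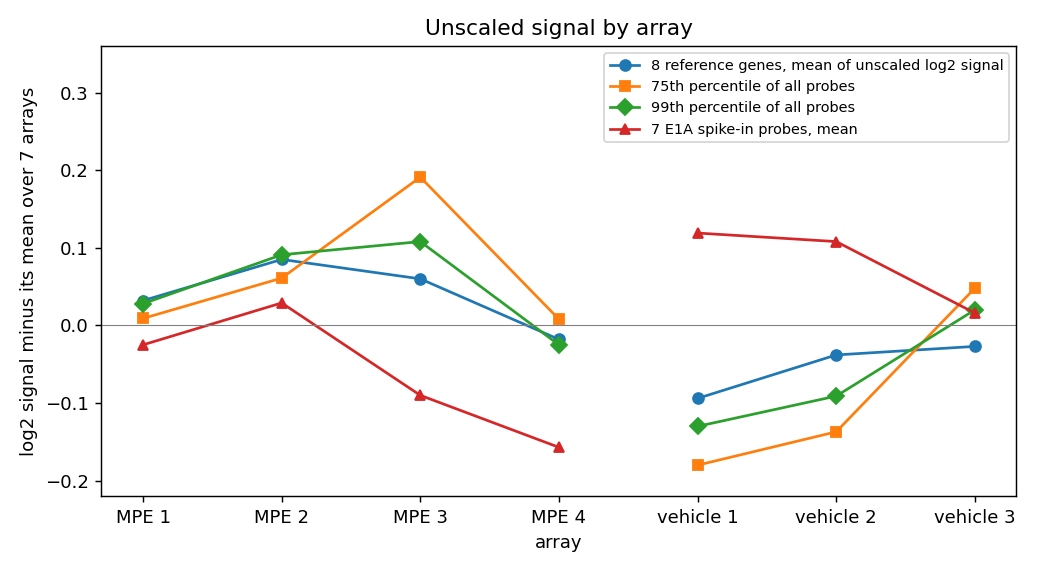
Unscaled log2 signal of each array minus its mean over the 7 arrays (y axis) for 4 summaries, the mean of the 8 reference genes, the 75th and 99th percentiles of all non-control probes and the mean of 7 E1A spike-in probes. The 75th percentile spans -0.18 to 0.19 and the reference genes -0.09 to 0.08, while the spike-in probes are highest on vehicle replicates 1 and 2 and lowest on MPE replicate 4.

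The sign of the difference between MPE and vehicle followed the scaling. With no scaling, all 8 genes were above 0, by 0.02 for Gapdh to 0.23 for Hprt, and the median of all genes was also shifted, to 0.14. Hprt and Ywhaz were then the genes whose groups did not overlap, both higher in MPE, where 7.48% of all genes were, while the Tbp groups overlapped. With scaling to the spike-in probes, all 8 were above 0 by 0.16 to 0.37, against a shift of all genes of 0.28. Relative to those shifts the 8 genes lay below all genes, by medians of 0.07 in both cases as at the 75th percentile, since each of these scalings adds the same value to every gene of an array. With median scaling 7 genes were below 0, with quantile normalisation 5, and also 5 by the authors' deposited values.

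Of single genes, Hprt was above 0 under all 9 scalings tried, from 0.00 with median scaling to 0.37 with spike-in scaling. Ywhaz was below 0 only with median scaling. Actb and Polr2a were below 0 under 7 of 9, Gapdh, Tbp and Tfrc under 6, and Ppia under 4. Under quantile normalisation Ppia had the lowest SD of the 8, 0.02, and Polr2a the highest, 0.11. The member with the least spread was therefore Tbp at the 75th percentile, Ywhaz with median scaling, Polr2a with no scaling, Actb with spike-in scaling and Ppia with the authors' values. For replicates 1-2 against the others, the number of genes above 0 was 8 at the 75th percentile, 5 with no scaling, 5 with quantile normalisation and 1 with spike-in scaling.

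**Figure D3:**
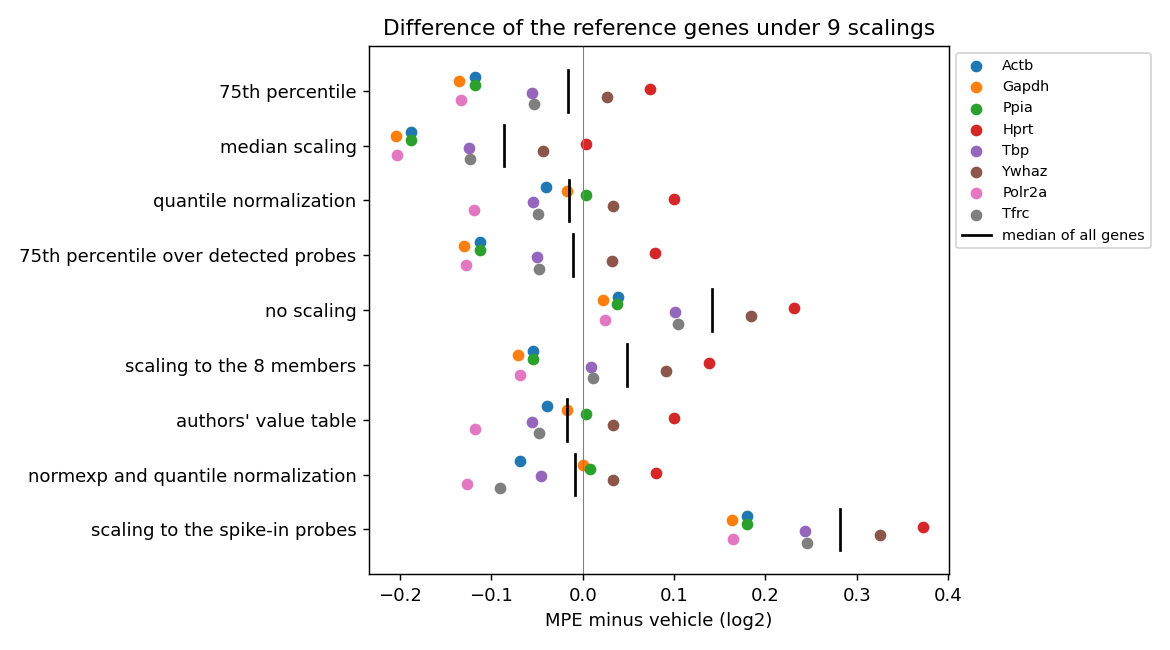
Difference between MPE and vehicle (x axis, log2) for each of the 8 reference genes (coloured points) under 9 scalings (rows), with the median of all genes tested as a black bar. Where a scaling divides each array by 1 factor, the points move together with the bar. Under quantile normalisation the bar stays at -0.015, against -0.016 at the 75th percentile, while the median of the 8 goes from -0.087 to -0.028. That median is -0.028 in the authors' values (bar at -0.017) and -0.023 with normexp and quantile normalisation (bar at -0.009). At the 75th percentile 6 of 8 lie below 0, none with no scaling or spike-in scaling, and Hprt is the rightmost point in every row.

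Ratios between the genes do not depend on a scaling that divides each array by 1 factor, and those at the 75th percentile are given here. Quantile normalisation and normexp are not of that kind and do change them. Over the 28 pairs, the SD of the log2 ratio over the 7 arrays ranged from 0.06 to 0.19, with a median of 0.10. Gapdh over Polr2a was the steadiest pair, with log2 ratios of 4.63, 4.56, 4.56 and 4.54 in MPE and of 4.64, 4.61 and 4.47 in vehicle. Gapdh over Hprt varied most, with 3.22, 3.09, 2.86 and 3.19 in MPE and 3.48, 3.27 and 3.15 in vehicle. In both pairs the groups overlapped, and the MPE minus vehicle difference of Gapdh over Hprt was -0.21, against -0.12 under quantile normalisation and -0.08 with normexp.

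The groups did not overlap in 3 of the 28 pairs, and Hprt was in each of them. The pairs share genes and arrays, so these 3 are not separate observations. How often other gene pairs had groups without overlap was not measured. Hprt over Polr2a was 0.21 higher in MPE, Hprt over Tbp 0.13 higher, and Ppia over Hprt 0.19 lower. The geNorm stability value M, the mean SD of a gene's log2 ratios to the other 7, was lowest for Ppia (0.095) and highest for Hprt (0.131). Hprt was thus among the steadiest genes at the 75th percentile and the least steady against its fellow references.

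Several probes of 1 gene did not give 1 answer. The 6 Gapdh probes differed between MPE and vehicle by -0.14 to 0.18, and they divided by brightness. The 3 brightest, with mean levels of 9.30, 8.54 and 8.51, had differences of -0.14, 0.01 and -0.08. The 3 dimmer ones, at 6.88, 6.09 and 4.82, had 0.07, 0.18 and 0.18. The dimmest gave 9796, 12288, 11944 and 11992 signal units in MPE, against 8146, 8415 and 10820 in vehicle. Its arrays overlapped after scaling, with means of 4.90 ± 0.14 (SD, n = 4) in MPE and 4.71 ± 0.10 (SD, n = 3) in vehicle. The mean over the 6 probes put Gapdh 0.04 above vehicle, the other direction from its brightest probe. Such a mean also turned Tbp to 0.03 and Ywhaz to -0.08.

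Among the other genes, Ppia and Polr2a had probes that gave like values. The second Ppia probe differed by -0.11 and the second Polr2a probe by -0.15, where their brightest probes had -0.12 and -0.13. The second Tfrc probe differed by -0.21, with levels of 1.40, 1.47, 1.27 and 1.19 in MPE and 1.77, 1.63 and 1.24 in vehicle. For Ywhaz the second probe, made to another transcript record, differed by -0.18 where the brightest one differed by 0.03. The other Tbp probes were dim and differed by 0.14 and -0.01. In all, 12 of 19 probes were below 0 at the 75th percentile and 2 of 19 without scaling, and at the 75th percentile the Tbp probe described above was the only one whose groups did not overlap.

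**Figure D4:**
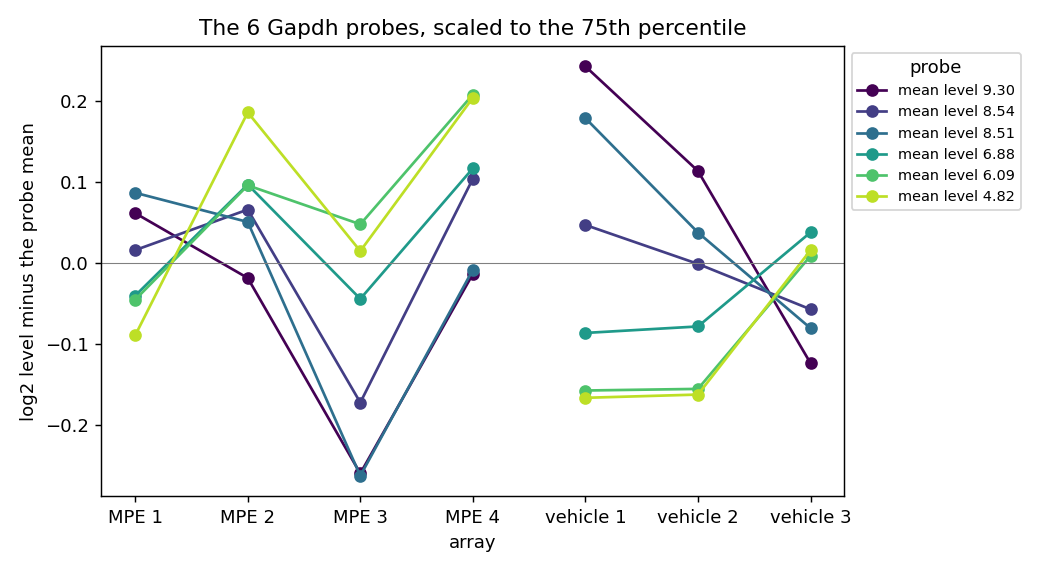
Level of each of the 6 Gapdh probes on each array (y axis, log2 level minus the probe's mean over 7 arrays; x axis, array), coloured by mean level from dark (9.30) to light (4.82). The 3 brighter probes are lowest on MPE replicate 3, while the 3 dimmer ones are lowest on vehicle replicates 1 and 2 and highest on MPE replicate 4.

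Genes outside the set also differed by brightness. Among the 19713 genes well above background on all arrays, the 198 brightest (1%) had a median difference between MPE and vehicle of -0.08, and 98.5% of them were below 0. The median over all 19713 was -0.01, with 56.9% below 0. The medians of the 5 brightness classes were not ordered, at -0.03, -0.01, 0.00, 0.00 and -0.02 from dim to bright. Actb, Gapdh and Ppia belong to the 198, and their differences of -0.12, -0.14 and -0.12 lie somewhat below that median. Without scaling the median of the 198 was 0.07, where that of all 19713 was 0.14. For replicates 1-2 against the others, the 198 had a median of 0.15 with 98.0% above 0, against 0.02 over all 19713, and the 5 brightness classes had -0.05, -0.01, 0.02, 0.03 and 0.05 from dim to bright. The part that brightness has in the differences of the reference genes was not tested.

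**Figure D5:**
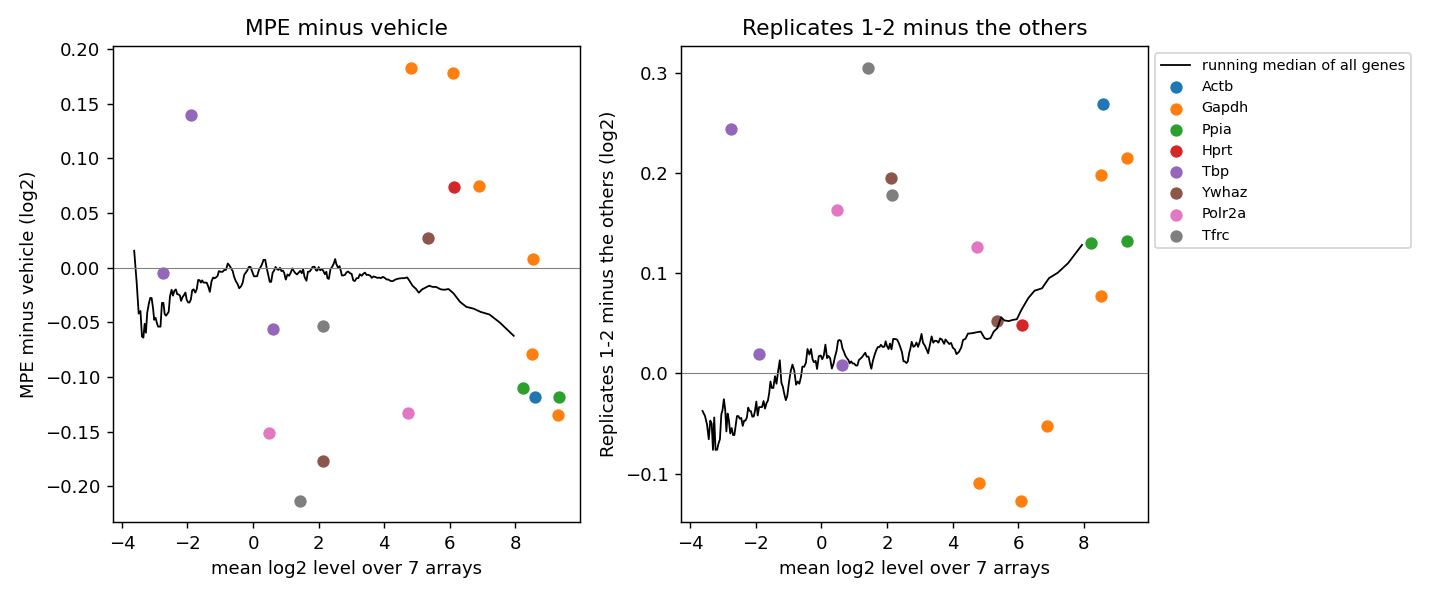
Difference between MPE and vehicle (left) and between replicates 1-2 and the others (right) for each of the 19 reference-gene probes (points, y axis in log2), against mean log2 level (x axis), with the running median of all genes well above background on all arrays as a line. The line on the left starts at about 0.02 at its dimmest point and drops below 0 just after it. It comes near 0 at middle levels and falls to about -0.06 at the bright end. On the right the line climbs to about 0.13 at the bright end. The brightest Gapdh, Ppia and Actb probes lie just past that end, below 0 on the left and above 0 on the right.

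Other genes in use as references mostly lay on the same side of 0 as the 8. Of 39 measured, 35 were below 0 between MPE and vehicle, with a median of -0.04, and 32 were above 0 on replicates 1-2, with a median of 0.08. Of all 22060 genes, 57.7% were below 0 between MPE and vehicle and 45.8% below 0 on replicates 1-2. The 39 had a median level of 5.46. In the brightest of the 5 brightness classes, from level 3.60, 67.3% were below 0 in MPE and 71.5% above 0 on replicates 1-2. Pgk1, the glycolytic phosphoglycerate kinase, had the largest difference of the 39. Its levels were 9.61, 9.50, 9.36 and 9.40 in MPE and 9.69, 9.70 and 9.50 in vehicle, a difference of -0.16 (SE 0.08, limma adjusted p = 1). The steadiest were Vcp, a protein-unfolding ATPase, with an SD of 0.03 over the 7 arrays, the RNA-binding protein gene Nono with 0.04 and the cyclophilin B gene Ppib with 0.04. The least steady were the ribosomal protein gene Rpl13a with 0.14, Pgk1 with 0.13 and the tubulin gene Tuba1a with 0.12.

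The partners of each gene were taken as lists. The shares of all 22060 genes below 0 were 57.7% between MPE and vehicle and 45.8% on replicates 1-2. Of 15 glycolysis genes, which work with Gapdh, 14 were below 0 between MPE and vehicle with a median of -0.06. On replicates 1-2, 14 were above 0 with a median of 0.12. These are bright genes, with a median level of 7.91. In the brightest of the 5 brightness classes, 67.3% of genes were below 0 in MPE and 71.5% above 0 on replicates 1-2. Among the brightest 1%, these shares were 98.5% and 98.0%. Actin cytoskeleton genes divided evenly between MPE and vehicle, 13 above and 12 below 0, with 19 of 25 above 0 on replicates 1-2. The largest difference among them was -0.10, for Actr2, a subunit of the Arp2/3 complex that branches actin filaments. Cyclophilin genes, the family of Ppia, were 7 above and 7 below 0 in MPE, and 13 of 14 were below 0 on replicates 1-2, the other side from Ppia. Ppil2 had the largest difference of that family between MPE and vehicle, -0.08.

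Partners in transcription had medians near 0 between MPE and vehicle. Of 24 genes of TFIID and the general transcription factors, 15 were above 0 in MPE, with a median of 0.02, and Taf2, a TFIID subunit, had the largest difference, 0.15. On replicates 1-2, 14 of the 24 were below 0, with a median of -0.03. Of 11 further RNA polymerase II subunits, 8 were below 0, with a median of -0.01, and Polr2k differed by 0.07, while 8 were above 0 on replicates 1-2, with a median of 0.05. Purine genes, the partners of Hprt, were 7 above and 12 below 0, and Xdh, the oxidase that ends purine breakdown, had the largest difference, -0.31, on a dim probe with means of -3.17 ± 0.21 (SD, n = 4) in MPE and -2.86 ± 0.39 (SD, n = 3) in vehicle. On replicates 1-2, 12 of the 19 purine genes were below 0, with a median of -0.02. Of 6 other 14-3-3 genes, 5 were below 0 in MPE, Sfn differed by -0.10, and 3 were below 0 on replicates 1-2. Of 13 iron genes, 8 were below 0 in MPE and 9 above 0 on replicates 1-2, and Steap3, an iron reductase that works with the transferrin receptor, differed by -0.22. Counting a gene in each of its lists, limma called 0 of 166 between MPE and vehicle, with 0 at an unadjusted p under 0.05, where 4.11% of all genes were. It called 0 of 166 between replicates 1-2 and the others, with 39 (23.5%) at an unadjusted p under 0.05, where 26.5% of all genes were.

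The mean profile of the 8 genes over the 7 arrays, centred on 0, was 0.02, 0.02, -0.13 and -0.03 in MPE and 0.09, 0.10 and -0.07 in vehicle. Likeness to it was measured as the root mean square distance over the 7 arrays, among genes well above background on all of them. The 4 named genes among the 5 closest were Tubb4b, a beta-tubulin gene, at 0.016, and Thap7, the protein phosphatase gene Ppp1ca and the kinase gene Map2k2 at 0.017 each, and the remaining transcript had no symbol. The distances of the 8 from their own mean ran from 0.047 for Ppia to 0.096 for Hprt. The 5 were picked as the closest of all these genes and the 8 were not. Setting these distances side by side therefore cannot show how alike the 8 are, and a typical distance over all genes was not measured.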

How the data were processed

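Per the labels' protocols, Cy3-labelled RNA of 7 MIN6 samples was hybridised to Agilent mouse arrays with 1 colour. Spot intensity values come from the deposited scanner files, background-subtracted and detrended within the array by Feature Extraction, per the file headers, which name version 11.5.1.1, unlike the submitters' processing notes with 10.5.1.1. The authors' value table, also deposited, holds 1 log2 value per probe. Its columns share a median of 4.438 and correlate with their own arrays at 0.999 or more, so it is quantile normalised, not centred per gene and runs in the same direction. The method and software behind the authors' value table are not given in the sources used.

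Control spots and 611 outlier-marked spot values were left out. Log2 intensity was averaged over a probe's spots and the 75th percentile of the array was subtracted. The 28874 probes that were well above background on 3 or more arrays entered, and the brightest probe represented a gene. Accessions were matched to symbols through a RefSeq table of GRCm38.p6, used for names only, which named 32994 of 56605 probes. All 22060 genes were fitted in limma 3.58.1 under R 4.3.3 (lmFit, eBayes, Benjamini-Hochberg), on treatment, on treatment and replicates 1-2, and with their interaction. Summaries of single arrays were compared by two-sided exact permutation tests. The number of arrays limits the precision. The fit was tested on simulated data.

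The 8 genes and all lists were chosen with earlier results of these data known. Beyond the 8, genes were named by rule: the largest difference between MPE and vehicle in each list, the 3 lowest and 3 highest SDs of other reference genes, and the 5 profiles nearest to the mean of the 8. Alternatives were other scalings, normexp with quantile normalisation (on median spot intensity, since the mean is not in the files used here, offset 50), the mean over probes, other filters, a trended robust variance, blocks and each array left out. Same-numbered replicates deviated together with correlations of 0.37, 0.07 and 0.56 across genes, and not every pair passed 0.1, so the numbers were not taken to pair the samples.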

Additional observations from a re-analysis of the deposited data

Results flagged for a closer look

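Polr2a had 1 MPE array far from the other 3. MPE replicate 3 had a level of 4.49, and the other MPE arrays lay between 4.73 and 4.75, so that the gap to the nearest of them was 0.923 of the whole range of the group. The second Polr2a probe was also lowest on that array among the MPE arrays, at 0.21 against 0.44 to 0.52. Of 16 such checks over the MPE group, on scaled and unscaled levels of the 8 genes, this was the one past the limit, and chance marks about 1 in 20.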

How the results depend on the processing

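Results on the 8 genes moved mainly with the scaling. Their median difference between MPE and vehicle, -0.09, was 0.07 with no scaling and 0.21 with spike-in scaling, which was chosen after seeing the data; it was -0.14 to -0.05 with 1 array left out. Their median for replicates 1-2 against the others, 0.13, was 0.032 under quantile normalisation and in the authors' value table, 0.037 with normexp, 0.008 with no scaling, 0.00 with scaling to the 8 genes themselves and -0.11 with spike-in scaling; it was 0.09 to 0.18 with 1 array left out. The median SD of 0.11 was 0.16 with median scaling, 0.069 under quantile normalisation and in the authors' values, 0.072 with scaling to the 8 genes, 0.063 with normexp and 0.079 to 0.119 with 1 array left out. Between MPE and vehicle limma called 1 gene, 2 with no or spike-in scaling, 0 with normexp, 0 with a filter on all 7 arrays, 3 with a trended robust variance, 9968 with no filter and 0 to 4 with 1 array left out. With no filter 45478 genes were tested, and of the 9968 calls 9619 were higher in MPE and 349 lower. Taking replicate number as a block left 0 calls, as did the slide column. MPE replicate 4 was alone in its replicate block and MPE replicate 3 alone in its slide column. The differences of the 8 were therefore the same as without that array, with medians of -0.08 and -0.06. Neither block changed the direction of the median of the 8. MPE replicate 2 correlated best with vehicle replicate 1, not with its own number. Between replicates 1-2 and the others the 373 calls became 1476 with median scaling, 1020 with none, 1927 with scaling to the 8 genes, 1585 with normexp, 6659 with spike-in scaling, 2 with no filter, 1319 with a filter on all 7 arrays, 2824 with a trended robust variance, 1409 without the treatment term and 2 to 229 with 1 array left out. Of the calls, 100 of 373 were higher, against 1069 of 1476 with median scaling, 105 of 1020 with no scaling, 156 of 1927 with scaling to the 8 genes, 700 of 1585 with normexp and 144 of 6659 with spike-in scaling. The interaction was called for 1 gene, 522 with no filter, 0 with a filter on all 7 arrays, 3 with a trended robust variance and 1 to 3 with 1 array left out; without vehicle replicate 3 it could not be fitted. The difference in the 75th percentile was 0.11 to 0.23 with 1 array left out. The cause of these changes was not tested, also where a filter changed the number of genes tested.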
